A study of Mus musculus with 4 samples.

Results

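Prostaglandin genes were followed in group 2 innate lymphoid cells (ILC2) that lacked or kept Ets1. The set held 10 genes chosen by symbol: the cyclooxygenases Ptgs1 and Ptgs2, the terminal synthases Hpgds, Ptges and Ptges3, the receptors Ptgdr2, Ptger2, Ptger4 and Ptgir, and the degrading enzyme Hpgd. Of these, 8 had a probe set that the platform annotation gives to 1 gene, 13 probe sets in all, among 18194 genes on the array. Ptgs1 was not analysed here. The 2 probe sets listed for Ptges3 also carry the symbol of a pseudogene, so no value was assigned to Ptges3. Of the 8 measured genes, 7 were bright enough to test, and Hpgd was not.

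All cells came from C57BL/6 mice and were kept with the cytokines IL-7 and IL-33 for 2 weeks on the stromal line OP9-DL1, which comes from bone marrow and presents a Notch ligand. Cells bearing ICOS, a costimulatory receptor, were then sorted for RNA, which was amplified before labelling. Controls were littermates of the Ets1-deleted mice, and each group had 2 arrays. Ets1 encodes a DNA-binding factor of the ETS family, and the study asks which genes depend on it in ILC2. The labels used here give neither the age of the mice, nor the part of Ets1 that was deleted and in which cells, nor whether an array holds 1 animal or a pool.

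Prostaglandins are made from arachidonic acid, which phospholipases release from membranes. A cyclooxygenase turns it into the unstable prostaglandin H2, and terminal synthases convert that into prostaglandin D2, prostaglandin E2 or prostacyclin. Each product acts on its own G protein-coupled receptors, most of which raise or lower cyclic AMP, and uptake followed by dehydrogenation ends the signal. ILC2 are known for Hpgds, which makes prostaglandin D2, and for its receptor Ptgdr2 (CRTH2), through which that lipid draws and activates them. Prostaglandin E2 and prostacyclin are known to restrain ILC2 through receptors that raise cyclic AMP.

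RefSeq promoters of GRCm38.p6 were found for all 10 genes, from 250 bases before to 50 after the annotated start. Those of Ptgs2, Ptger2, Hpgds and Ptgir are shown because these genes had the largest rises and falls described below and the deleted factor binds DNA. Each run is the 250 bases before the start, 5′ to 3′ on the gene's strand, and capitals mark GGAAG, a core that many ETS sites contain, or its reverse complement CTTCC. The Ptgs2 run is chr1:150099781-150100030 on the plus strand, upstream of a gene at chr1:150100031-150108234. That of Ptger2 is chr14:44987861-44988110 on the plus strand, upstream of a gene at chr14:44988111-45003820. The Hpgds run is chr6:65144731-65144980 on the minus strand. It lies within the span given for its gene, chr6:65117293-65144981, so the start used is not the outermost of that span. The Ptgir run is chr7:16906240-16906489 on the plus strand, upstream of a gene at chr7:16906490-16910905. The windows of Ptgs1, Ptges and Ptgdr2 also lie within the spans of their genes, so the motif counts below mix both kinds of window.
Ptgs2: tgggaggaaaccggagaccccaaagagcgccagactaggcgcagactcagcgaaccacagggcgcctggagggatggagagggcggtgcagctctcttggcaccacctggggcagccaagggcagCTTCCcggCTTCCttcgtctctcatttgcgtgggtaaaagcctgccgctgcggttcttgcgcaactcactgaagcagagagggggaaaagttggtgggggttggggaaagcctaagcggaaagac
Ptger2: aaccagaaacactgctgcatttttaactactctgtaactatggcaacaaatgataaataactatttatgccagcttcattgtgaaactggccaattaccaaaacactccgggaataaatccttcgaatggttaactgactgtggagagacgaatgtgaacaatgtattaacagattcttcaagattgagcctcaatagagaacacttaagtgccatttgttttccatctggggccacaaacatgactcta
Hpgds: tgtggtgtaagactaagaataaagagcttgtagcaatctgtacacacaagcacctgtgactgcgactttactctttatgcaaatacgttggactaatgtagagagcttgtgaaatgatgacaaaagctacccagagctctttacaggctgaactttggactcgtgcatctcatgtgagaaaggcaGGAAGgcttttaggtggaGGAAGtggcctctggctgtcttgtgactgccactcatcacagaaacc
Ptgir: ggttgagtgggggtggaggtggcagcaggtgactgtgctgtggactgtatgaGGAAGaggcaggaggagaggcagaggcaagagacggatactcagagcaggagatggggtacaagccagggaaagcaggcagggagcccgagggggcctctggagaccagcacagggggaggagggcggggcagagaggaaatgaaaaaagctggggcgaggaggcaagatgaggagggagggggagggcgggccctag

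The longer ETS letters CNGGAAGT were found on either strand in the windows of 0 of the 10 genes, and in 9.53% of the 32851 RefSeq windows of the same 300 bases. The core GGAAG, which lies inside that motif, was in the windows of 9 of the 10 genes, all but Ptger2, against 71.4% of all windows. It was thus common everywhere. Among these genes only the window of Ptger2 lacked it, so genes with and without it could not be compared. The cyclic AMP response core TGACG, in 20.8% of all windows, was in those of 2 of the 10 genes, Ptgs2 and Ptges3. The E-box CACGTG, in 7.15% of all windows, was in that of Ptgs2. In Ptgs2 the core reads as its reverse complement CGTCA from 14 bases after the start and overlaps the E-box, which begins 17 bases after it. Both are in capitals in this stretch, chr1:150100036-150100065 on the plus strand.
Ptgs2 start: caccactaCGTCACGTGgagtccgctttac
The letters GGGNNTTCC, used here for NF-kB (5.82% of all windows), and the AP-1 letters TGANTCA (7.81%) were in the windows of 0 of the 10 genes. Longer forms of an NF-kB site do not match these letters and were not searched. TATAAA, in 13.6% of all windows, was in that of Hpgd. A match describes letters only, and these data hold no measure of binding.

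After RMA processing, the medians of the arrays were 96.5 to 97.71 intensity units. Ets1 itself, the check of the labels, was at 1272 and 1231 units in the controls and at 138 and 180.2 in the Ets1-deleted arrays. That is 7.93-fold lower, and all 4 of its probe sets were lower without overlap. Of 10873 tested genes, limma called 26.7% at an adjusted p under 0.05, 13.9% as higher and 12.8% as lower after deletion, so changes were widespread. With 2 arrays a group, 62.6% of the tested genes had no overlap between the groups, so a lack of overlap was common. The ILC2 markers Gata3, at 2741 to 3032, and Il7r, at 1880.0 to 2038, were bright in all 4 arrays. Others were dimmer in the controls, such as Arg1 at 154.1 and 156.7 and Thy1 at 178.5 and 170.6. Of the 14 tested ILC2 markers, 7 were called higher and 3 lower, while Il1rl1 and Areg were not analysed here.

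Among the prostaglandin genes, 3 rose (Ptgs2, Ptger2, Ptges) and 3 fell (Hpgds, Ptgir, Ptgdr2) of the 7 tested, and Ptger4 did not pass the test. The genes for the inducible cyclooxygenase, the prostaglandin E synthase and 1 prostaglandin E receptor were thus higher without Ets1. The genes for the prostaglandin D synthase, its receptor and the prostacyclin receptor were lower. The count of 6 in 7 stands beside 26.7% of all tested genes as a description, since the set was chosen with results known. Ptgs2 and Ptger2 also reached the brightness limit of 97.44 units only through the Ets1-deleted arrays. The median difference of the 7 was 0.28 on the log2 scale, against -0.00 for all tested genes.

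**Figure D1:**
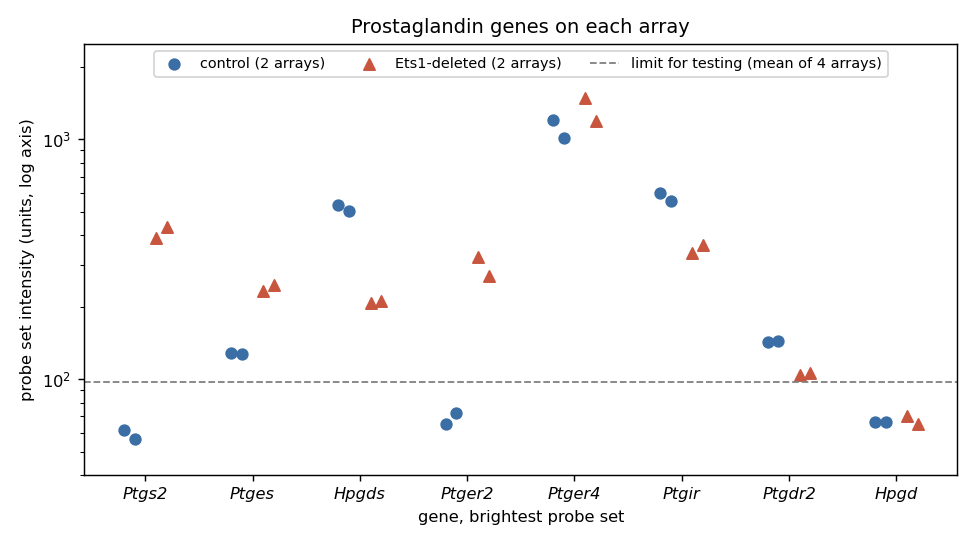
Intensity (log axis) of the brightest probe set of each of the 8 measured prostaglandin genes, 1 symbol per array, circles for the 2 control and triangles for the 2 Ets1-deleted arrays, with the brightness limit of 97.44 units as a dashed line. Control points of Ptgs2 and Ptger2 lie under the limit and their Ets1-deleted points above it, and the groups of Ptger4 and Hpgd overlap.

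Ptgs2, also called COX-2, is the inducible cyclooxygenase that catalyses the first committed step of the pathway. It was at 61.3 and 56.4 units in the controls and at 389.7 and 433 in the Ets1-deleted arrays. Both control values were among the dimmest on their arrays, at the 12.3 and 5.28 percentiles, and both Ets1-deleted values were above the 82nd. The difference was 2.80 ± 0.11 (log2, SE, n = 2 arrays a group; limma adjusted p = 1.92e-08), or 6.99-fold. Each Ets1-deleted array exceeded each control by 6.36-fold to 7.68-fold, while arrays of 1 group differed by at most 1.11-fold. A second probe set read 48.15 and 50.3 against 278 and 324, 6.10-fold higher. With control values so near the dimmest on the array, the fold depends on the background: subtracting each array's 5th percentile gave 4.47 on the log2 scale.

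Ptges, the inducible microsomal synthase that makes prostaglandin E2, was at 128.6 and 127.5 units in the controls and at 233.5 and 246 in the Ets1-deleted arrays. The groups did not overlap, and Ptges was 1.87-fold higher (log2 difference 0.91 ± 0.11, SE; limma adjusted p = 6.19e-05). Its other probe sets moved less. One read 101.6 and 85.6 against 113.4 and 111.5 (0.27 ± 0.12, adjusted p = 0.129 in limma's fit of single probe sets), and the other, under the limit, 74.9 and 88.05 against 103.1 and 107.8. The mean over the probe sets differed by 0.52.

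Hpgds, the hematopoietic synthase that makes prostaglandin D2, went the other way. It was at 535 and 502 units in the controls and at 208.7 and 211.3 in the Ets1-deleted arrays. The fall was 2.47-fold (log2 difference -1.30 ± 0.11, SE; limma adjusted p = 3.24e-06), and pairs of a control and an Ets1-deleted array differed by 2.38-fold to 2.56-fold. The Ets1-deleted values still lay above the 71st percentile of their arrays, so the probe set stayed bright. Hpgds has 1 probe set, so no other reading of it was possible here.

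**Figure D2:**
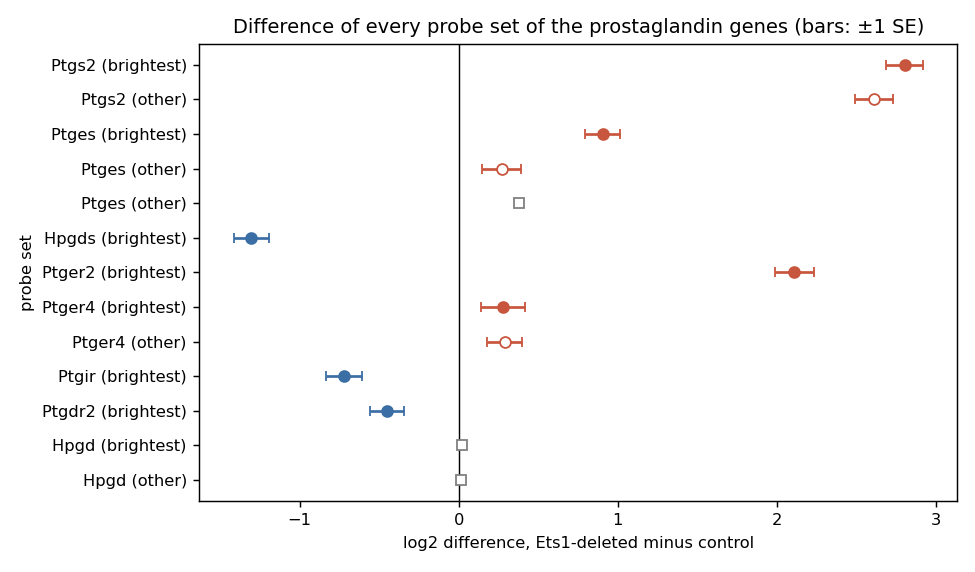
Log2 difference, Ets1-deleted minus control, for every probe set of the 8 measured prostaglandin genes, in red above 0 and blue below, with the brightest probe set of a gene filled and the others open. Bars are 1 SE, and grey squares are probe sets too dim to test. Ptgs2 at 2.80 and Hpgds at -1.30 are at the ends, and the open symbols of Ptges lie nearer 0 than its filled one at 0.91.

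Among the receptors, Ptger2 (EP2), a prostaglandin E2 receptor that raises cyclic AMP, rose most. It was at 64.8 and 72.2 units in the controls, at the 17.7 and 28.1 percentiles, and at 325 and 269 in the Ets1-deleted arrays. The groups stood far apart, and the rise was 4.32-fold (log2 difference 2.11 ± 0.13, SE; limma adjusted p = 1.73e-07). Subtracting each array's 5th percentile gave 3.90 on the log2 scale.

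Ptger4 (EP4), the other prostaglandin E2 receptor that raises cyclic AMP, was bright in every array. It was at 1199 and 1013 units in the controls and at 1495 and 1198 in the Ets1-deleted arrays. The groups overlapped, since the lower Ets1-deleted array lay just under the higher control. The difference of 0.28 ± 0.14 (log2, SE) did not pass (limma adjusted p = 0.157). Its second probe set read 416 and 420.5 against 507 and 516, without overlap, and also missed the threshold in the fit of single probe sets (0.29 ± 0.11; adjusted p = 0.0757). The mean of both passed narrowly (0.28; adjusted p = 0.0435), as did the brighter probe set without Ets1-deleted replicate 2 (0.44; adjusted p = 0.0355), so Ptger4 lay near the threshold.

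Ptgir, the prostacyclin receptor, which also raises cyclic AMP, fell. It was at 599.5 and 552 units in the controls and at 336 and 364 in the Ets1-deleted arrays, without overlap. The fall was 1.65-fold (log2 difference -0.72 ± 0.11, SE; limma adjusted p = 0.00051). Ptgdr2 (CRTH2), which binds prostaglandin D2 and lowers cyclic AMP, was at 143 and 143.8 units in the controls and at 104.3 and 105.8 in the Ets1-deleted arrays. Arrays of a group almost coincided, and the fall of 1.36-fold was the smallest among the called genes of the set (log2 difference -0.45 ± 0.11, SE; limma adjusted p = 0.00847). Both groups were close to the brightness limit, and the call did not pass with a minimum of 1.5-fold. Subtracting each array's 5th percentile gave -0.83.

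Hpgd, the dehydrogenase that inactivates prostaglandins, was not measurable above the dim range. It was at 66.3 and 66.6 units in the controls and at 70.2 and 65.0 in the Ets1-deleted arrays. These values overlapped and stayed under the limit, and a second probe set, from 56.5 to 64.95, did too. With all genes tested regardless of brightness, its difference was 0.02 ± 0.08 (limma adjusted p = 0.922).

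**Figure D3:**
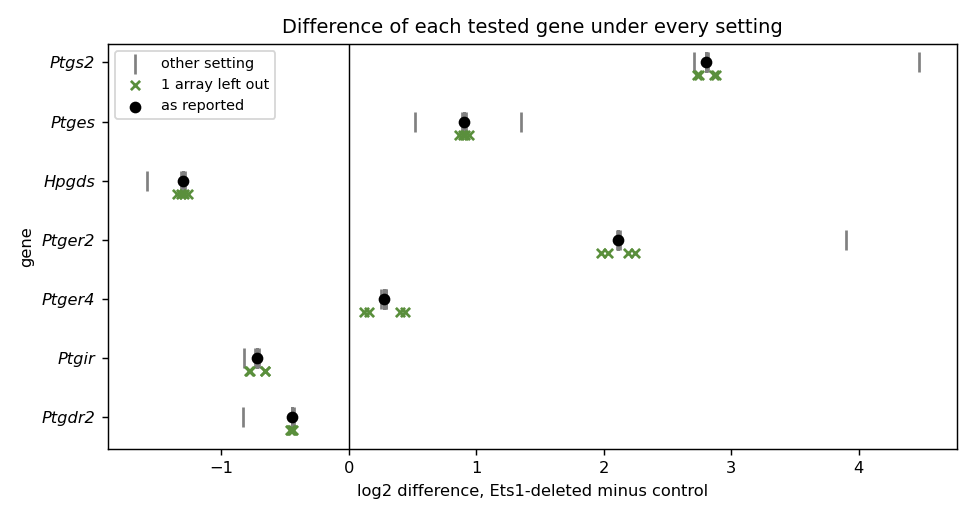
Log2 difference of each of the 7 tested prostaglandin genes as reported (black), with 1 array left out (green crosses) and under each other alternative that gave a value (grey ticks). No gene changed sign, the largest shifts are those of Ptgs2 (to 4.47) and Ptger2 (to 3.90) after subtraction of an array floor, and Ptger4 stays between 0.12 and 0.44 when an array is left out.

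The genes whose 4 array values, centred on their mean, lay nearest those of Ptgs2 were Phlda1, Cd163l1 and Peg10, at root mean square distances of 0.07, 0.09 and 0.11 log2 units over 4 arrays. For instance, Phlda1 was at 428 and 420.5 units in the controls and at 2542 and 2935 in the Ets1-deleted arrays. Nearest to Hpgds were Iqsec1, Apobec1 and Rab37, at 0.01, 0.03 and 0.05. With 4 arrays in 2 groups, such likeness mostly restates a difference of similar size.

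Of 19 other genes for prostanoid enzymes, receptors and transport on the array, 13 were tested, 6 rose and 3 fell, with a median of 0.20. These are 46.2% higher and 23.1% lower, against 13.9% and 12.8% of all tested genes. The genes that rose were dim: under the 70th percentile filter the count of rises was 0, and 2 of the rises and 1 of the falls passed with a minimum of 1.5-fold. Ptger3, a prostaglandin E2 receptor that lowers cyclic AMP, was at 141.3 and 127.3 units in the controls and at 219.5 and 209.5 in the Ets1-deleted arrays (log2 difference 0.68 ± 0.11, SE). Ptger1, the prostaglandin E2 receptor that signals through calcium, fell by 0.51, and this call was lost without Ets1-deleted replicate 2 and for the mean over its probe sets. Of the 4 receptors for prostaglandin E2, Ptger2 and Ptger3 thus rose, Ptger1 fell with a call that depended on 1 array, and Ptger4 did not pass.

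Of the enzymes, Ptges2, a second prostaglandin E synthase, rose by 0.48 and Tbxas1, the thromboxane synthase, by 0.41. Cbr2 and Akr1c18, which reduce prostaglandins or steroids, each rose by 0.53, and Ptgr1, a reductase that helps to inactivate prostaglandins and leukotriene B4, rose by 0.86. Cbr1, a carbonyl reductase, fell by 0.38. The calls of Ptges2, Tbxas1, Akr1c18 and Cbr1 were each lost when an array was left out (control replicate 1 for Ptges2 and Akr1c18, control replicate 2 or Ets1-deleted replicate 1 for Tbxas1, and either control or Ets1-deleted replicate 2 for Cbr1, also lost with no filter). Without Ets1-deleted replicate 2, 1 of the 3 falls in the list remained a call, that of Abcc4. Abcc4, which exports prostaglandins, was at 245 and 244 units in the controls and at 170.5 and 138.9 in the Ets1-deleted arrays (-0.67 ± 0.12, log2, SE). The uptake carrier Slco2a1 did not pass (0.04), nor did the thromboxane receptor Tbxa2r (0.10). The prostaglandin D receptor Ptgdr, the lipocalin-type synthase Ptgds and the prostacyclin synthase Ptgis were too dim to test.

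Upstream, 22 genes for the release and reuptake of arachidonic acid were on the array, 16 were tested, 7 rose and 3 fell, with a median of 0.07. These are 43.8% higher and 18.8% lower, against 13.9% and 12.8% of all tested genes. Pla2g4a, the cytosolic phospholipase A2 that frees arachidonic acid, was at 83.9 and 72.0 units in the controls and at 338 and 339 in the Ets1-deleted arrays. It was 4.36-fold higher (log2 difference 2.12 ± 0.12, SE; limma adjusted p = 9.99e-08). As with Ptgs2, its control values were under the brightness limit, so it passed that limit through the Ets1-deleted arrays, and subtracting each array's 5th percentile gave 3.74 on the log2 scale.

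Anxa1, whose protein restrains phospholipase A2, also rose, from 571 and 580.2 to 1388 and 1486 units (1.32 ± 0.11), and by 0.46 on its other probe set. Of 7 tested enzymes of the kinds that put arachidonic acid back into membranes, 4 rose, against 13.9% of all tested genes. Lpcat3 rose by 1.02, Acsl3 by 0.80 and Acsl4 by 0.79. Mboat1 rose by 0.86, but by 0.15 on its other probe set. The other 3 did not pass, with Mboat7 at 0.02, Acsl5 at -0.01 and Lpcat2 at -0.25. Pla2g15, a lysosomal phospholipase, rose by 0.51, a call lost without Ets1-deleted replicate 1. Plaat3, a phospholipase of the acyltransferase family, fell by 0.70. Daglb and Mgll, which release arachidonic acid by way of the endocannabinoid 2-arachidonoylglycerol, fell by 0.44 and 0.51. Without control replicate 2, 1 of the 3 falls remained a call, since Daglb and Mgll lost theirs. Daglb also lost its call without Ets1-deleted replicate 1, and Mgll without Ets1-deleted replicate 2 and with no filter.

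Arachidonic acid also feeds the leukotriene branch. Of 15 other eicosanoid genes on the array, 7 were tested, 5 rose (71.4%, against 13.9% of all tested genes) and 0 fell, with a median of 0.49. With a minimum of 1.5-fold, 2 of the rises passed. Alox5ap, which presents arachidonic acid to 5-lipoxygenase, was at 177.1 and 182.1 units in the controls and at 1104 and 907 in the Ets1-deleted arrays (2.48 ± 0.12, 5.57-fold). Alox5, the lipoxygenase itself, rose by 0.69, and the cysteinyl leukotriene receptors Cysltr2 and Cysltr1 by 0.57 and 0.49. Lta4h, which makes leukotriene B4, rose by 0.36 with an adjusted p (0.0454) just under the threshold. Without control replicate 2 or without Ets1-deleted replicate 1, 3 of the 5 calls remained, those of Cysltr1 and Lta4h being lost, and that of Lta4h was lost in 9 alternatives besides ordinary variances and the minimum of 1.5-fold, among them no filter and the mean over its probe sets. Ltc4s, which makes leukotriene C4, was too dim to test.

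**Figure D4:**
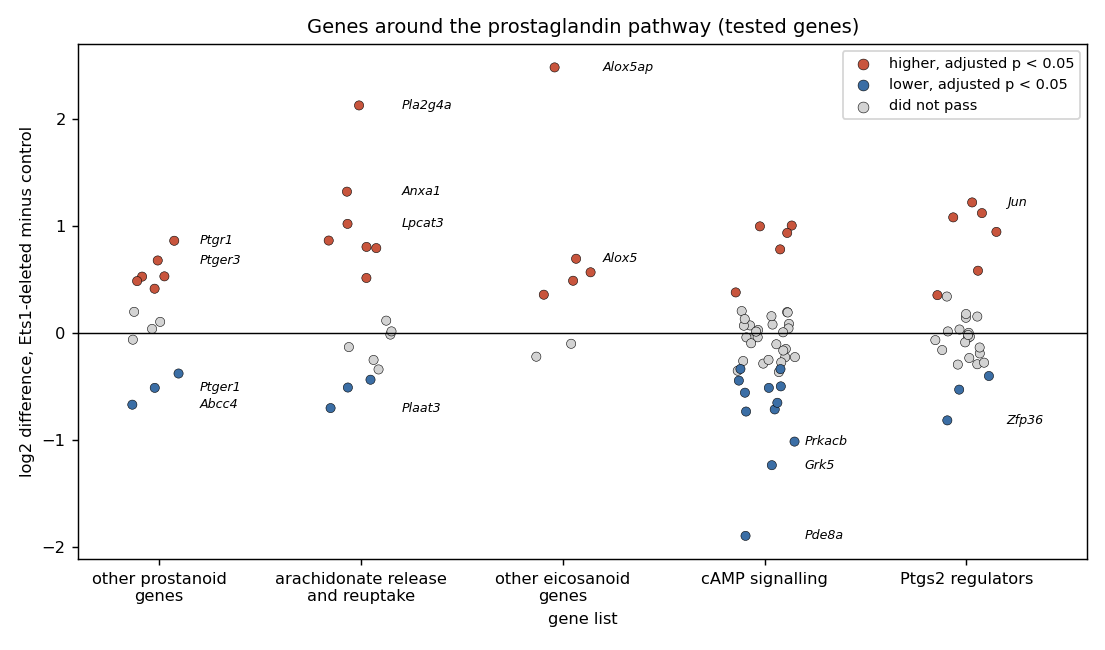
Log2 difference, Ets1-deleted minus control, of every tested gene in the 5 pathway lists around the prostaglandin set, 1 point per gene, red where called higher, blue where called lower and grey otherwise, spread sideways for legibility. The highest call is Alox5ap at 2.48, and the cyclic AMP list has 12 blue and 5 red points.

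Downstream, 46 genes of cyclic AMP signalling were on the array and 45 were tested, of which 5 rose and 12 fell, with a median of -0.10. That is 11.1% higher and 26.7% lower, against 13.9% and 12.8% of all tested genes, and 6 of the falls passed with a minimum of 1.5-fold. Gnas, the stimulatory G protein subunit through which the EP2, EP4 and prostacyclin receptors act, was at 5811 and 4944 units in the controls and at 5614 and 5649 in the Ets1-deleted arrays. It did not pass (0.07 ± 0.12). Adcy6, an adenylyl cyclase that makes cyclic AMP, rose by 0.78 from control values under the brightness limit (84.5 and 82.7 units), and by 1.67 after subtraction of an array floor. Prkacb, a catalytic subunit of protein kinase A, fell by 1.01, and Pkig, an inhibitor of that kinase, rose by 0.93.

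Of 6 tested phosphodiesterases, which degrade cyclic AMP, 4 fell, 1 rose and 1 did not pass. Of all tested genes, 12.8% fell and 13.9% rose. Pde8a was at 409 and 390.0 units in the controls and at 106 and 109.2 in the Ets1-deleted arrays (-1.89 ± 0.11), and Pde4d, Pde4b and Pde4a fell by 0.51, 0.50 and 0.34. Pde7a rose by 1.00, though by 0.22 on another probe set, and Pde3b (0.07) did not pass. Grk5, a kinase that desensitises receptors, fell by 1.23, and Arrb1, an arrestin that binds them, rose by 1.00. Akap13, which anchors protein kinase A, fell by 0.71, a call lost for the mean over its probe sets, where 1 of 5 bright ones was at 0.03. Pkia, another kinase inhibitor, was singled out after its values were seen: it was at 155.2 and 157.3 units in the controls and at 60.0 and 60.3 in the Ets1-deleted arrays, and its mean was under the limit for testing.

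Of 29 genes known to control Ptgs2 transcription or mRNA decay, 28 were tested, 6 rose and 3 fell, with a median of -0.03. The 32.1% called lay near the 26.7% of all tested genes. Jun, an AP-1 subunit, was at 139.9 and 144.6 units in the controls and at 328 and 334 in the Ets1-deleted arrays (1.22 ± 0.11). Cebpb, a leucine zipper factor, rose by 1.08 but by 0.24 on its other probe set, and Egr1, an immediate early factor, by 0.94. Fosl2, another AP-1 subunit, rose by 0.58 but by 0.27 on its other probe set, and its call was lost without control replicate 2. The NF-kB subunits Rela (-0.09 ± 0.13) and Rel (-0.16 ± 0.12) did not pass.

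The family of zinc finger proteins that bind AU-rich messages and speed their decay was split. Zfp36, known to act on Ptgs2 mRNA, was at 2445 and 2544 units in the controls and at 1520 and 1323 in the Ets1-deleted arrays (-0.81 ± 0.12). Zfp36l2 fell by 0.53, with another probe set at -0.04, and Zfp36l1 rose by 1.12. Celf2, an RNA-binding protein that also acts on Ptgs2 mRNA, fell by 0.40. That call was lost without control replicate 1, without Ets1-deleted replicate 1, after subtraction of the array floor and for the mean over its probe sets.

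Several of these genes are also expressed by other cells, and markers of such cells moved with the groups. Of 15 mast cell and basophil markers on the array, 9 of the 11 tested rose (81.8%, against 13.9% of all tested genes) and 0 fell. Of the 11 tested, 7 reached the brightness limit in both controls, while Cpa3, Hdc and Mitf, which rose, passed it only through the Ets1-deleted arrays. Intensities of the list summed to 2824 to 2831 units in the controls and 4881 to 5216 in the Ets1-deleted arrays. Such a sum adds unlike probe sets and is set mostly by the brightest. Cpa3 was at 85.9 and 78.3 units in the controls and at 1497 and 1261 in the Ets1-deleted arrays, and without it the sums were 2738 to 2753 and 3619 to 3718. The others that rose included Csf2rb by 2.34, Mcpt2 by 1.39, Mcpt1 by 0.64 and Kit by 0.55. Mcpt8, the brightest of the list, did not pass (-0.25). Ms4a2 was at 72.0 and 63.7 units in the controls and at 92.7 and 103.5 in the Ets1-deleted arrays, and its mean, like those of Fcer1a (55.1 to 66.4) and Tpsab1 (64.95 to 70.3), was under the limit for testing.

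Of 17 myeloid markers, 12 of the 13 tested rose (92.3%, against 13.9% of all tested genes) and 0 fell. Of the 13 tested, 11 reached the brightness limit in both controls, and Adgre1 passed it only through the Ets1-deleted arrays. The myeloid sums were 3211 to 3541 units in the controls and 6351 to 6621 in the Ets1-deleted arrays, while Itgam (88.98 to 98.0) and Cd14 (75.7 to 86.6) were too dim to test. The T cell markers summed to 3814 to 3991 against 7254 to 7536, with 5 of 8 tested higher (62.5%) and 1 lower (12.5%). Of the 8 tested, 5 reached the limit in both controls. Among the T cell markers Cd3e rose from 102.8 and 81.6 to 803 and 992 units, and Cd4, Cd8a, Cd8b1 and Cd5 were too dim to test. The stromal markers summed to 3980 to 4203 against 4716 to 4727, with 2 of 14 tested higher (14.3%) and 3 lower (21.4%). Among all tested genes the shares were 13.9% and 12.8%. Pdgfra, Dcn, Lum and Dlk1 were too dim to test. The 2 that rose were Timp3 and Thy1, which is also in the ILC2 list, and without them the stromal sum was 3658 to 3898 in the controls and 3151 to 3346 in the Ets1-deleted arrays.

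B cell markers summed to 839 to 847 units against 552 to 562, with 0 of 2 tested higher and Cd79b lower. That sum follows Cd79b, at 381.4 and 379.9 units in the controls and 91.6 and 83.5 in the Ets1-deleted arrays. Vpreb3 did not pass (0.09), and the other 5 were too dim to test. Eosinophil markers summed to 422 to 428 against 549.8 to 574, with 1 tested, Siglecf, which rose. Siglecf passed the brightness limit only through the Ets1-deleted arrays, with control values of 95.15 and 95.29 units. Of 14 ILC2 markers, 7 rose and 3 fell, while 13.9% of all tested genes rose and 12.8% fell. Sums of the ILC2 markers were 25103 to 27150 units in the controls and 30950 to 33060 in the Ets1-deleted arrays. The ILC2 markers that rose were Thy1, Arg1, Rora, Il17rb, Il5, Il2ra and Il13. Those that fell were Klrg1, Nmur1 and Icos, the sorted protein. The part of other cells in the differences of the prostaglandin genes was not tested. In such bulk samples, more RNA per cell and more cells of a type cannot be told apart.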

How the data were processed

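Transcript levels were measured with 1 Affymetrix array per sample, 2 control and 2 Ets1-deleted. The deposited intensity values are RMA probe set summaries, per the submitters' processing notes, and their range was read as linear. The sources used here do not give the genome build. Names came from the platform annotation, and only probe sets with 1 symbol were used (34958 of 45101).

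The brightest probe set, by mean log2 value over the arrays, stood for each gene. Genes whose mean reached the 50th percentile of all probe sets were tested with limma 3.58.1 (lmFit and eBayes, two-sided, Benjamini-Hochberg over all 10873 tested genes, threshold 0.05). Levels of different probe sets are not comparable. The labels do not say whether the arrays of a group are separate animals or cultures. The p-values then measure no more than the spread between these samples, and that spread may be technical. The number of arrays limits the precision. The code was tested on simulated data.

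The genes and lists were chosen with earlier results of these data known. Named were Ets1, every member, every called gene of the prostanoid, arachidonate and eicosanoid lists, the 8 called genes of smallest p in the cyclic AMP and Ptgs2 regulator lists, and the 3 nearest patterns to Ptgs2 and Hpgds. Other genes named (Gnas, Rela, Rel, genes that did not pass or were too dim, and cell markers) stand as examples of their lists. The called genes Pde4a, Pde4b and Pde4d are outside that rule and were named to complete the phosphodiesterases. The alternatives included quantile normalization done again, arrays centred on medians, no filter or a 70th percentile filter, the mean over probe sets, a fit of single probe sets, subtraction of an array floor, other variance models, a minimum of 1.5-fold, a replicate block and leaving out each array. The GGAAG search, list counts per alternative and marker sums without single genes were added after seeing the data. Counts of phosphodiesterases, reuptake enzymes and prostaglandin E2 receptors as groups were outside the original plan.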

Additional observations from a re-analysis of the deposited data

How the results depend on the processing

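The 2-against-2 design rests on limma's sharing of variance between genes. With ordinary variances, 7 genes were higher and 6 lower at the adjusted threshold, and 0 members were called higher and 0 lower, while 2607 genes had an unadjusted p under 0.05. With a minimum of 1.5-fold, 768 genes were higher and 581 lower. Under the 70th percentile filter 0 members were called higher, because Ptgs2, Ptges and Ptger2 were no longer tested, and 2 were called lower, because Ptgdr2 was not tested either. No tested prostaglandin gene called under the main settings changed sign under the alternatives run, and each kept its call when any 1 array was left out. Leaving out 1 array leaves its group with 1 sample, whose spread is then assumed to equal that of the other group. Without either control array, limma gave every gene the same SE (0.17), so a call there depended only on the size of the difference.

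With the replicate number as a block, 1689 genes were higher and 1563 lower, and 3 and 3 of the members. Nothing in the labels makes the numbers a pairing, and the difference of replicate 1 minus 2 correlated between the groups at r = 0.167 across 10873 genes, which are not independent. Among 41 other named genes, 12 lost a call when 1 array was left out and 0 changed sign. Dim control values limit the folds of Ptgs2, Ptger2, Pla2g4a and Adcy6. Subtraction of an array floor also moved the log2 differences of Ptger3 (to 1.02), Cbr2 (0.96), Akr1c18 (0.95), Tbxas1 (0.79), Alox5 (1.11), Mgll (-0.80) and Cbr1 (-0.59) by over 1.5 times.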
